A study of Mus musculus with 20 samples.

Results

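Myelin is the membrane sheath that oligodendrocytes wrap around axons of the central nervous system. It is held together by basic proteins and by galactolipids, it is sealed by tight junctions and coupled to its cell by gap junctions, and its outermost and innermost layers carry their own adhesion proteins. Mature oligodendrocytes lie in the grey and white matter of the cortex, and the transcription factors SOX10 and MYRF are required for them to make and keep myelin. The genes described here are a list of 34 named genes of myelin and mature oligodendrocytes. Of these, 33 were named on the array and all 33 passed the limit on dim probe sets, among 13351 genes tested and 18193 genes with a probe set of a single gene symbol. Enpp2, the secreted lysophospholipase that makes lysophosphatidic acid, had no probe set with its name in the annotation used and is not analysed here.

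The neocortex of 20 male B6C3F1 mice was measured with 1 oligonucleotide array per mouse, in 4 groups of 5 mice. The old mice with the tocopherol mixture were 30 months old and had received α-tocopherol and γ-tocopherol, each at 500 mg/kg, since 15 months of age. The old mice with α-tocopherol were 30 months old and had received 1000 mg/kg of it since 15 months. The old control mice were 30 months and the young control mice 5 months of age, and neither had a supplement. α- and γ-tocopherol are forms of vitamin E, and γ-tocopherol lacks a methyl group on the ring. All mice were first-generation hybrids, housed singly, and the RNA came from whole neocortex, so that fewer cells of a type and less RNA per cell cannot be told apart.

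Values are the deposited signals, in arbitrary units of brightness, and every array had a trimmed mean of 1000. A difference is one of log2(signal + 16) between group means with its standard error (SE) from limma over all 20 arrays (n = 5 per group), and a gene is said to rise or fall where the Benjamini-Hochberg adjusted p over all 13351 genes was under 0.05. Signals of different probe sets cannot be set against each other, so levels are compared only within a gene. Summed signals of a list are compared only between groups, and the brightest probe sets weigh most in them. The number of arrays limits the precision. The median signal of the arrays averaged 308 ± 17.0 in mixture, 296 ± 15.3 in α-tocopherol, 292 ± 12.4 in old control and 321 ± 6.24 in young control mice (SD, n = 5 each). The β-actin 3'/5' ratio, a sign of RNA integrity and of how far labelling ran along the transcript, averaged 1.43 ± 0.14 in mixture, 1.67 ± 0.39 in α-tocopherol, 2.04 ± 0.34 in old control and 1.52 ± 0.14 in young control mice (SD, n = 5 each). It was entered in the fit, and the 3 arrays with the highest ratios were left out, as alternatives. Old control mouse 3 stood apart from its group in these genes, and the differences with age that it moved by over 1.5 times are given with and without it.

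Where myelin genes changed between old and young control mice, they were higher in the old. Of the 33 members 12 rose, none fell and 21 did not pass the test, against 12.4% of all tested genes that rose and 10.4% that fell. The members' median difference was 0.27, that of all tested genes -0.02, and 23 members were above and 10 below 0. The rises reached from 1.22-fold to 1.84-fold. At an unadjusted p under 0.05 there were 17 of the 33 members, against 4895 of the 13351 genes tested. Of these 17 members only Cldn11 was below 0.

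**Figure D1:**
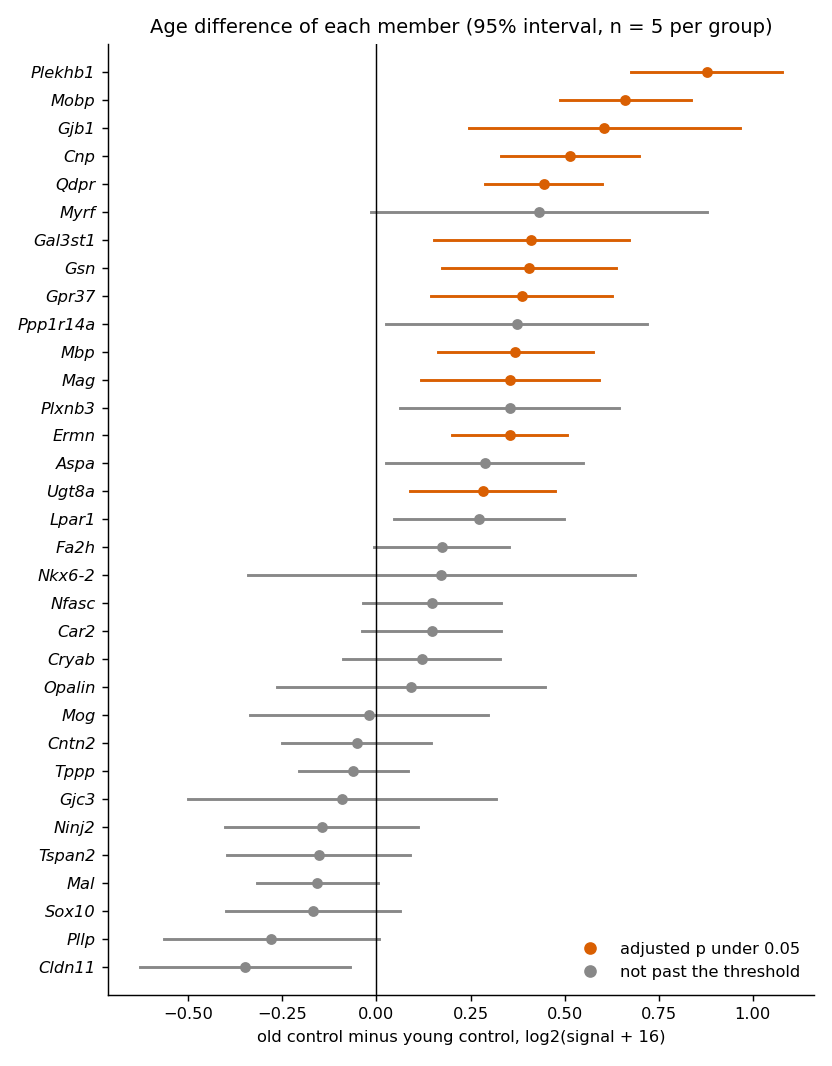
Difference of each of the 33 members between old control and young control mice, in log2(signal + 16), with 95% intervals from limma (n = 5 per group). The 12 orange members passed an adjusted p of 0.05 and lie between 0.28 and 0.88; the 21 grey members did not pass and reach from -0.35 to 0.43.

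Among the proteins of compact myelin, Mobp and Mbp rose while Mal and Pllp did not pass the test. Mobp, the myelin-associated oligodendrocyte basic protein, had signals of 19630, 22166, 16708, 21473 and 18961 in old control mice, against 11813, 12351, 12556, 12836 and 12661 in young control mice. Every old control mouse was above every young one, and the difference of 0.66 ± 0.08 SE was 1.58-fold (adjusted p = 2.96e-05). All 4 of its tested probe sets were higher with age, by 0.36 to 0.66. Mbp, myelin basic protein, which holds the inner faces of the membrane together, had signals of 35981, 42380, 50310, 41108 and 52401 in old control mice, against 33302, 34666, 30495, 32206 and 40589 in young control mice. The groups overlapped through old mouse 1 and young mouse 5, and the difference was 0.37 ± 0.10 SE, or 1.29-fold (adjusted p = 0.0106). Its probe set ranked 4 in brightness among 45037, and its call was lost with quantile and cyclic loess normalization, at differences of 0.03 and 0.15. Mal, a proteolipid that sorts membrane vesicles, differed by -0.16 (adjusted p = 0.147) and Pllp, the proteolipid plasmolipin, by -0.28 (adjusted p = 0.145). Without old control mouse 3, the lowest for both, the differences were -0.07 for Mal and -0.13 for Pllp.

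The genes of the outer and innermost layers of the sheath moved unevenly: 3 of 7 rose and 4 did not pass. Cnp, the cyclic nucleotide phosphodiesterase of non-compact myelin, had signals of 12776, 13974, 11908, 14544 and 13644 in old control mice, against 10259, 9229, 8278, 9246 and 9730 in young control mice. No old mouse reached down to a young one, and the difference was 0.52 ± 0.09 SE (1.43-fold, adjusted p = 0.000432). Ermn, the cytoskeletal protein ermin of oligodendrocyte processes, had signals of 2640, 2829, 2291, 2813 and 2578 in old control mice, against 2048, 2142, 2058, 1928 and 2074 in young control mice. The groups again did not overlap, with a difference of 0.35 ± 0.07 SE (1.28-fold, adjusted p = 0.00188). Mag, the myelin-associated glycoprotein that faces the axon, had signals of 5735, 6168, 3820, 6506 and 6311 in old control mice, against 4606, 4438, 4031, 4600 and 4268 in young control mice. Old mouse 3 lay below all 5 young mice and the other 4 old mice above them, and the difference of 0.35 ± 0.11 SE passed (adjusted p = 0.0284); without that mouse it was 0.49 (adjusted p = 0.000798).

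Mog, the glycoprotein at the outermost surface of the sheath, stood in contrast to these. Its signals were 987, 1339, 781, 1381 and 1208 in old control mice, against 1207, 1221, 1048, 1120 and 1073 in young control mice. Old mice lay on both sides of the young ones, and the difference was -0.02 with a 95% interval from -0.34 to 0.30 (adjusted p = 0.937). Without old mouse 3 the Mog difference was 0.11 (adjusted p = 0.641). Opalin, a sialylated membrane protein of oligodendrocytes, differed by 0.09, Tppp, which promotes tubulin polymerization, by -0.06 and Tspan2, a tetraspanin of the oligodendrocyte membrane, by -0.15, none past the test. Without old mouse 3 the Opalin difference was 0.25 and that of Tspan2 -0.04.

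The promoters of Mobp, Cnp and Mag are shown as examples of members that rose with age and whose windows held known binding motifs. All 3 held letters known as a motif of SOX proteins, and Cnp and Mag also held one of MYRF. The sequences are those of RefSeq, build GRCm38.p6, the 250 bases before the gene's start, written 5′ to 3′ on the gene's strand. Capitals mark the SOX motif ACAAAG, read on the other strand as CTTTGT, and the MYRF motif CTGGCAC, with GTGCCAG on the other strand. For Mag 1 of 3 windows is shown; another overlaps it and holds the same matches, and the third holds none. The windows lie at chr9:120149492-120149741 on the plus strand for Mobp, at chr11:100574689-100574938 on the plus strand for Cnp and at chr7:30914864-30915113 on the minus strand for Mag.
Mobp: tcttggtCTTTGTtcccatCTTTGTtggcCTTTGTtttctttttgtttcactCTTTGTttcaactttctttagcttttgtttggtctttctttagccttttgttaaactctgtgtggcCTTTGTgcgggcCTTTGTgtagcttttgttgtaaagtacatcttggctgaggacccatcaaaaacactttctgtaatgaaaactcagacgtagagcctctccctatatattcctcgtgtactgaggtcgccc
Cnp: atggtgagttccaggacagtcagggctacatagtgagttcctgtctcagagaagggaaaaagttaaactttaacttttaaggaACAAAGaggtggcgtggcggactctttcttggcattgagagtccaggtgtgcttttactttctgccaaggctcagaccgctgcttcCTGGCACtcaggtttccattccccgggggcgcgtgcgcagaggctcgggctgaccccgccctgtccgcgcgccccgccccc
Mag: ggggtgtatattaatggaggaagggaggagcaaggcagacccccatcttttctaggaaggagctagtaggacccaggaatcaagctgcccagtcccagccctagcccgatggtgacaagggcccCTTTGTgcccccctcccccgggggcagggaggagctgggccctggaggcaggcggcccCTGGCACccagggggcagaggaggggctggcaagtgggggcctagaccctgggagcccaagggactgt
The Mobp window held CTTTGT 6 times, the Cnp window ACAAAG and CTGGCAC once each, and the Mag window CTTTGT and CTGGCAC once each. Promoters of 27 members matched by symbol, with 41 windows among 32851. The SOX motif was in 12 of the 41 windows, of 9 of the 27 genes, and in 16.46% of all 32851. Of these 9 genes Mobp, Cnp, Mag, Plekhb1 and Gjb1 rose with age, and Opalin, Tspan2, Lpar1 and Plxnb3 did not pass the test. CTGGCAC was in 4 of the 41, of the 3 genes Cnp, Mag and Lpar1, and in 4.19% of all. A second MYRF motif, CTGGTAC with GTACCAG on the other strand, was in 1 of 41, that of Mog, and in 1.83% of all. In the Cnp and Mag windows shown the SOX and MYRF matches did not overlap, and the Mobp window held no MYRF match. These matches describe the letters and show no binding.

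Both enzymes that build the galactolipids of myelin rose. Gal3st1, the sulfotransferase that makes sulfatide, had signals of 768, 789, 731, 921 and 781 in old control mice, against 709, 596, 638, 665 and 412 in young control mice. The groups did not overlap, with a difference of 0.41 ± 0.13 SE (1.33-fold, adjusted p = 0.021). Ugt8a, the galactosyltransferase that makes galactosylceramide, the precursor of sulfatide, had signals of 3505, 3852, 2513, 3781 and 3442 in old control mice, against 2693, 2762, 2649, 2518 and 3322 in young control mice. Old mouse 3 was again the exception, below every young mouse, and the difference was 0.28 ± 0.09 SE (1.22-fold, adjusted p = 0.0314), or 0.39 without that mouse (adjusted p = 0.00143). Its call was the least steady of the 12, kept in 13 of 24 alternative settings. Fa2h, which hydroxylates the fatty acids of myelin sphingolipids, differed by 0.17 (adjusted p = 0.152), and Aspa, the aspartoacylase that frees acetate from N-acetylaspartate, by 0.29 (adjusted p = 0.101).

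Among the junction proteins only Gjb1 passed the test. Gjb1, a connexin of oligodendrocyte and Schwann cell gap junctions, had signals of 676, 814, 413, 690 and 885 in old control mice, against 434, 453, 362, 521 and 434 in young control mice. Old mouse 3 lay among the young mice, and the difference was 0.61 ± 0.17 SE (1.52-fold, adjusted p = 0.0156), or 0.78 without it (adjusted p = 0.00168). Cldn11, the claudin that seals the layers of central myelin, had the most negative difference of all members, -0.35 ± 0.13 SE (adjusted p = 0.0635). Its signals were 3495, 3791, 2075, 3893 and 3252 in old control mice, against 4304, 4498, 3616, 3860 and 4348 in young control mice. Its interval, from -0.63 to -0.07, held no positive value, but the groups overlapped and it did not pass over all genes. Without old mouse 3 it was -0.19 (adjusted p = 0.203). Gjc3, a connexin-family protein of myelinating cells, was barely brighter than the limit of 184, with a mean of 205 over all mice, and differed by -0.09, or by -0.16 without that mouse.

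The 3 transcription factors among the members, Sox10, Myrf and Nkx6-2, did not pass the test. Sox10 had signals of 2709, 2204, 2536, 2570 and 2131 in old control mice, against 2302, 2582, 2917, 3268 and 2630 in young control mice. The groups overlapped widely, at a difference of -0.17 ± 0.11 SE (adjusted p = 0.29). Myrf had signals of 3123, 2502, 2168, 3114 and 1459 in old control mice, against 1852, 1811, 1488, 1882 and 1816 in young control mice. Its 4 highest old mice were above every young mouse and the lowest was below all of them, so that a difference of 0.43 had an SE of 0.22 (adjusted p = 0.15). Nkx6-2, a homeobox factor of oligodendrocyte maturation, differed by 0.17 ± 0.25 SE, or by 0.29 without old mouse 3.

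Of the 6 genes for axon contact and receptors, Gpr37 rose. Gpr37, a receptor of maturing oligodendrocytes that in mice holds back premature myelination, had signals of 1552, 2204, 1543, 2101 and 2328 in old control mice, against 1783, 1452, 1387, 1314 and 1417 in young control mice. Old mice 1 and 3 stayed below the highest young mouse, and the difference was 0.39 ± 0.12 SE (1.31-fold, adjusted p = 0.0199). Plxnb3, a semaphorin receptor, and Lpar1, a receptor for lysophosphatidic acid, differed by 0.35 and 0.27 and just missed the test (adjusted p = 0.0708 and 0.0731). Nfasc, the neurofascin of nodes and paranodes, differed by 0.15, Cntn2, a contactin at the juxtaparanode, by -0.05 and Ninj2, a ninjurin adhesion protein, by -0.15. Nfasc, Cntn2, Tppp, Cryab, Car2, Gsn and Qdpr are also made by neurons, astrocytes or other cells, so their signal is not that of oligodendrocytes alone.

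The remaining enzymes and cytosolic proteins held the largest rise. Plekhb1, a membrane-bound pleckstrin homology protein, had signals of 12304, 12723, 12952, 14634 and 13359 in old control mice, against 8254, 6648, 7574, 7502 and 6027 in young control mice. The lowest old mouse was far above the highest young mouse, and the difference was 0.88 ± 0.10 SE, or 1.84-fold (adjusted p = 6.14e-06). Qdpr, the dihydropteridine reductase that recycles tetrahydrobiopterin, had signals of 22200, 26217, 21912, 26534 and 25334 in old control mice, against 18788, 17430, 16480, 17295 and 19652 in young control mice. Here too no old mouse reached the young range, at a difference of 0.44 ± 0.08 SE (1.36-fold, adjusted p = 0.000388). Gsn, the actin-severing protein gelsolin, had signals of 2062, 2795, 1830, 2033 and 1987 in old control mice, against 2000, 1616, 1698, 1369 and 1374 in young control mice. The groups overlapped, with a difference of 0.41 ± 0.11 SE (1.32-fold, adjusted p = 0.012). Ppp1r14a, an inhibitor of a protein phosphatase, Car2, a carbonic anhydrase, and Cryab, a small heat shock protein, differed by 0.37, 0.15 and 0.12 without passing. The other tested probe set of Cryab, with a mean signal of 4791, differed by 0.39. With the mean of its tested probe sets Cryab was called higher.

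**Figure D2:**
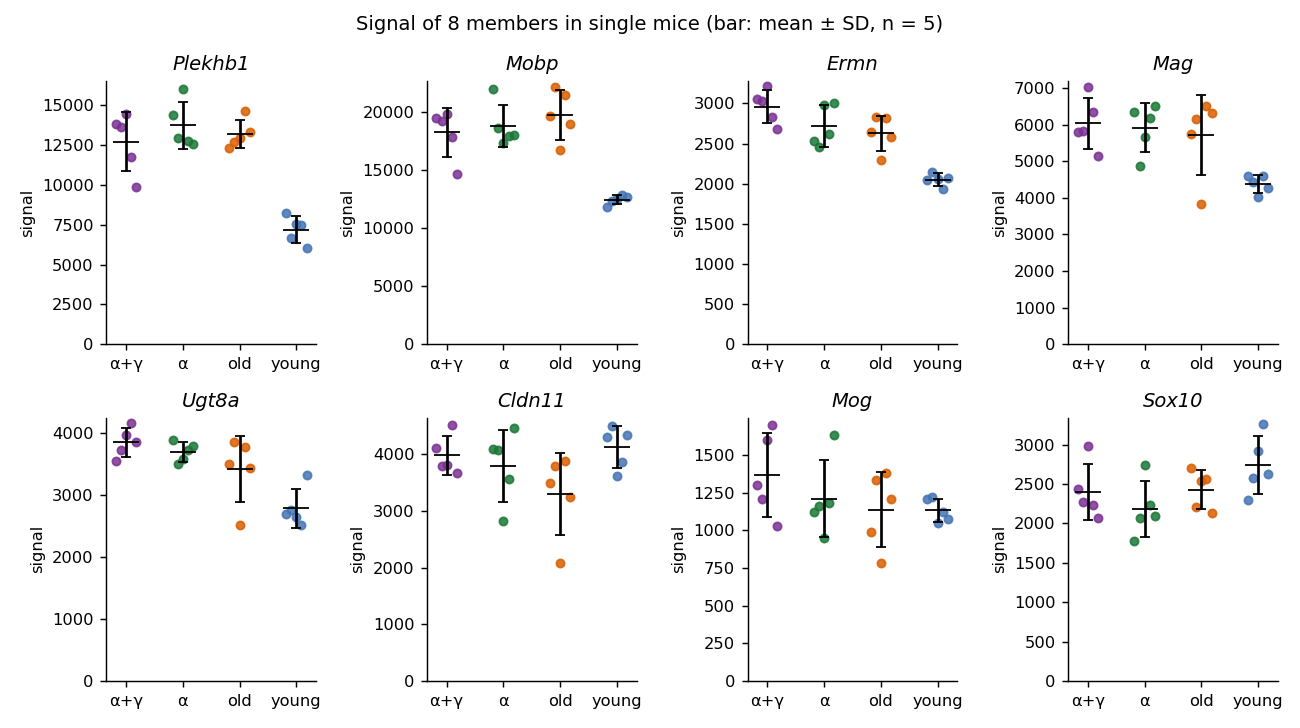
Signal (linear, axes from 0) of 8 members in each mouse of the mixture (α+γ), α-tocopherol (α), old control and young control groups; points are single mice and the bar is the mean ± SD (n = 5). For Plekhb1, Mobp and Ermn all old mice of the 3 groups lie above the young mice, Mag, Ugt8a and Cldn11 have one low old control mouse, and Mog and Sox10 overlap.

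Several calls rested on the probe set. In the 16 members with several tested probe sets, all of them had one sign with age in 9, and Mbp, Mal, Sox10, Tspan2, Gsn, Nfasc and Cntn2 had both. Cnp, Qdpr, Gjb1 and Plxnb3 were read from probe sets with names ending in _x_at or _s_at, the mark of possible cross-hybridisation. Without such probe sets 9 members were called, and Cnp, Qdpr and Gjb1 differed by 0.05, 0.02 and 0.04 on their brightest other probe set, against 0.52, 0.44 and 0.61 as used. The members' median was then 0.15.

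Old control mouse 3 differed from the others of its group across the members. The mean over the 33 members of the difference from the young mean was -0.04 in old control mouse 3, close to the lowest young mouse and just below it, and 0.18 to 0.33 in the other 4 old control mice. That mouse was the lowest of its group for 23 of the 33 members, but not for Mbp, Plekhb1 or Sox10. Its array had the highest β-actin 3'/5' ratio of all 20, at 2.52, and a median signal of 313, the highest of its group. Without it 15 members rose, now with Aspa, Lpar1 and Ppp1r14a. Without old control mouse 4 there were 8, and without mouse 2 there were 9. With the β-actin ratio in the fit 8 members were called, without Gal3st1, Mag, Mbp and Ugt8a.

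**Figure D3:**
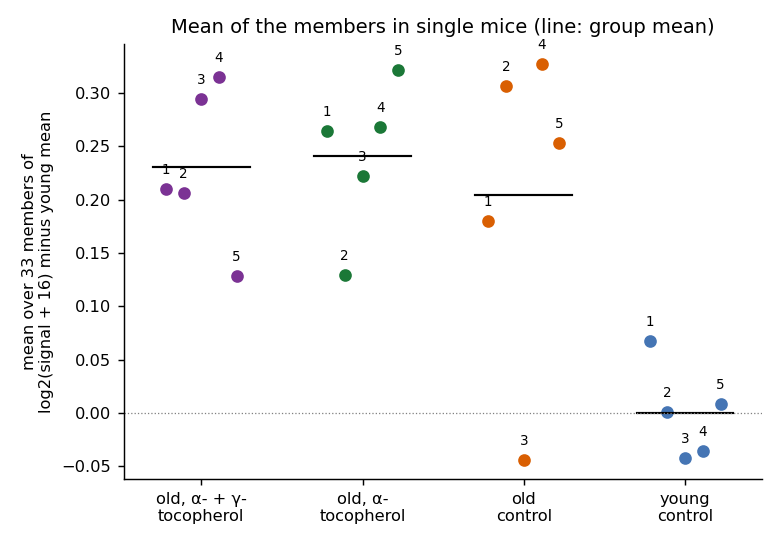
Mean over the 33 members of log2(signal + 16) minus the young control mean, for each mouse (numbered within its group), with lines at the group means. Old control mouse 3 lies at -0.04 and every other old mouse of the 3 groups between 0.13 and 0.33.

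Both supplement groups were also set against young control mice, which all 3 comparisons with old mice share. In α-tocopherol mice 14 members rose and 1 fell, against 11.7% and 10.5% of all tested genes. In mixture mice 10 rose and none fell, against 9.74% and 9.59%; 15 members passed an unadjusted p under 0.05. The 10 members called higher in each of the old groups were Cnp, Ermn, Gal3st1, Gjb1, Gpr37, Gsn, Mag, Mobp, Plekhb1 and Ugt8a. Their differences from young control mice were 0.45 to 0.91 in mixture, 0.40 to 0.93 in α-tocopherol and 0.28 to 0.88 in old control mice. The member that fell in α-tocopherol mice was Sox10, with signals of 1782, 2074, 2739, 2228 and 2092 there, against 2302, 2582, 2917, 3268 and 2630 in young control mice. Its difference was -0.33 ± 0.11 SE (adjusted p = 0.0371), the groups overlapped, and the call was lost without any 1 of young mice 3, 4 and 5 or α-tocopherol mice 1, 2, 4 and 5 (adjusted p = 0.0519 to 0.111). The other tested probe sets of Sox10 did not share the fall. Their mean signals were 1454 in α-tocopherol against 1496 in young control mice, and 614 against 543. With the mean of all its probe sets Sox10 was not called. Across the 3 old groups, 20 members were above and 6 below young control mice in all of them, the 6 being Mal, Cldn11, Sox10, Pllp, Ninj2 and Tppp.

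**Figure D4:**
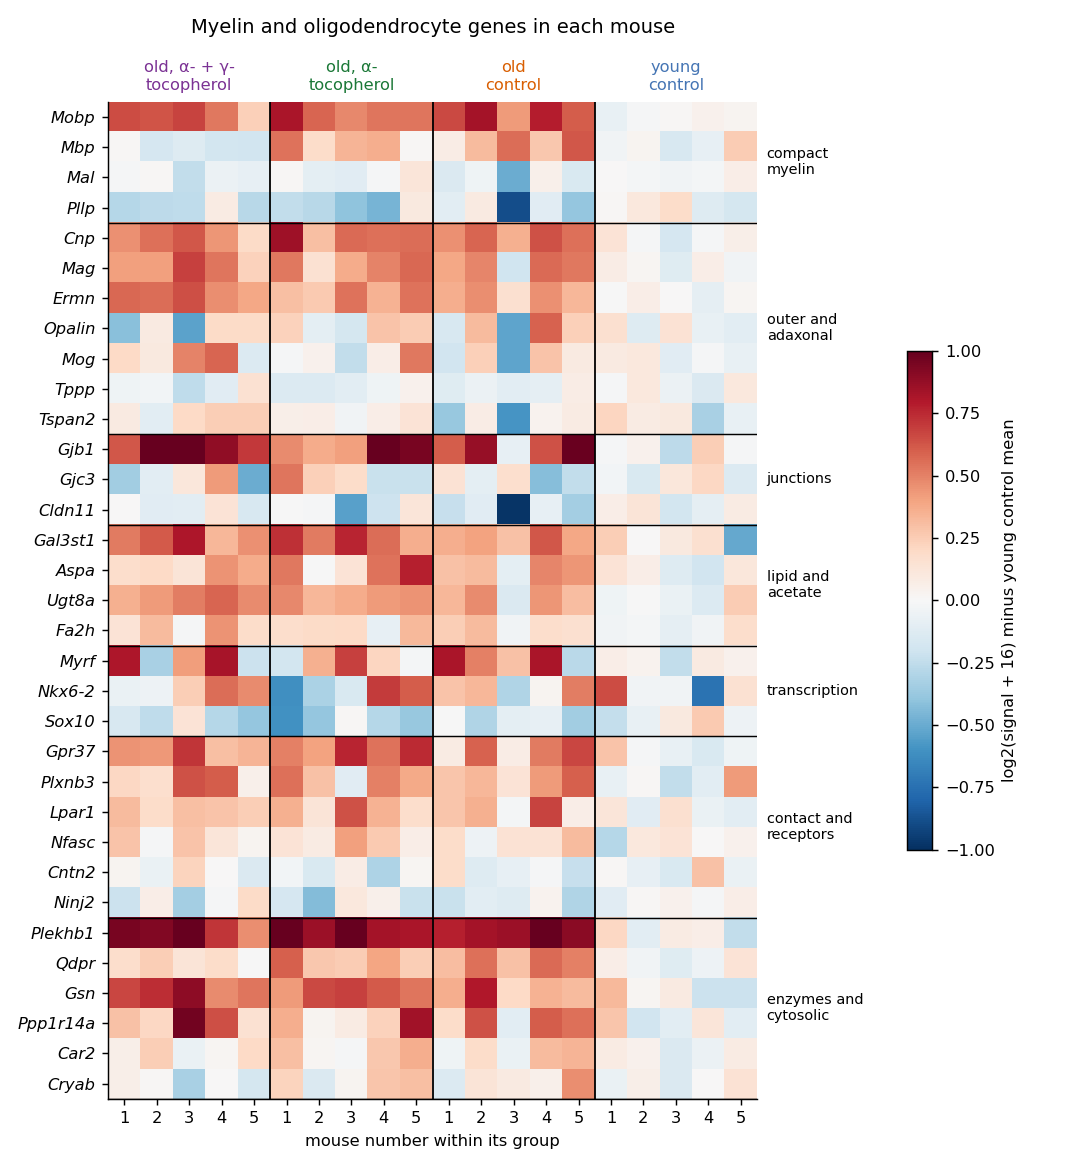
Heat map of the 33 members (rows, ordered by role and by their age difference) in 20 mice (columns, mixture, α-tocopherol, old control and young control from left to right), coloured by log2(signal + 16) minus the young control mean, with the scale ending at -1 and 1. Mobp, Cnp, Ermn, Plekhb1 and Gal3st1 are red in every old mouse of the 3 groups, and old control mouse 3 is blue in Pllp, Cldn11, Tspan2, Opalin and Mog.

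No member passed limma's test between α-tocopherol and old control mice. None of the 33 was called higher or lower, as were 0% of all tested genes in either direction. At an unadjusted p under 0.05 there were 0 members, against 753 of the 13351 genes tested. The members' median difference was 0.04, or -0.02 without old control mouse 3, and the 95% interval of the fold lay within 1.5-fold either way for 30 of the 33. The member with the smallest p was Tspan2, with signals of 2634, 2648, 2466, 2655 and 2789 in α-tocopherol mice, against 1946, 2666, 1672, 2600 and 2684 in old control mice. The difference of 0.21 ± 0.12 SE rested on old control mice 1 and 3, which were low (adjusted p = 0.868), and was 0.10 without mouse 3. Mal had signals of 7250, 6703, 6643, 7134 and 7796 in α-tocopherol mice, against 6509, 6960, 5099, 7434 and 6455 in old control mice (difference 0.14, adjusted p = 0.875). Gpr37 had signals of 2081, 1937, 2492, 2140 and 2458 in α-tocopherol mice and differed by 0.20 (adjusted p = 0.877), and Cldn11 had signals of 4095, 4070, 2819, 3565 and 4461 there and differed by 0.22 (adjusted p = 0.887). All 4 overlapped old control mice, and without old control mouse 3 the differences were 0.05 for Mal, 0.13 for Gpr37 and 0.06 for Cldn11.

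With the tocopherol mixture, 2 of the 33 members fell against old control mice, Mbp and Qdpr, and none rose, while 3.16% of all tested genes fell and 1.36% rose. At an unadjusted p under 0.05 there were 6 of the 33 members, against 2550 of the 13351 genes tested. Besides Mbp and Qdpr, the other 4 had positive differences. Mbp had signals of 34341, 30349, 31119, 30044 and 29876 in mixture mice, against 35981, 42380, 50310, 41108 and 52401 in old control mice. Every mixture mouse was below every old control mouse, and the difference was -0.50 ± 0.10 SE, 1.41-fold lower (adjusted p = 0.00933). Against young control mice, the Mbp difference of mixture mice was -0.13, with an interval from -0.34 to 0.07 (adjusted p = 0.37). In α-tocopherol mice the Mbp signals were 49629, 38668, 43118, 43897 and 34276. Qdpr had signals of 20261, 21239, 19594, 20313 and 17883 in mixture mice, all below the 21912 to 26534 of old control mice, at a difference of -0.30 ± 0.08 SE (1.23-fold lower, adjusted p = 0.0281).

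Neither fall held under all processing choices. With quantile normalization the differences were -0.05 for Mbp and -0.04 for Qdpr, with cyclic loess -0.24 and -0.10, with the mean of all probe sets of the gene -0.25 and -0.12, and with the β-actin ratio in the fit -0.37 and -0.21, none past the test. Of the 8 tested probe sets of Mbp, 5 with mean signals of 27888 or more were lower in mixture than in old control mice, by 0.36 to 0.58 on the log2 scale, and the other 3, with mean signals of 22432, 1844 and 722, differed by 0.04, 0.15 and 0.11. The Qdpr probe set used is one marked for possible cross-hybridisation, and its other, with a mean signal of 9147, differed by 0.06. The Qdpr call was also lost without old control mouse 2, 4 or 5 or mixture mouse 5 (adjusted p = 0.0553 to 0.0831). For both genes the probe sets that were lower were the brighter ones, and the part of brightness in the falls was not tested.

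**Figure D5:**
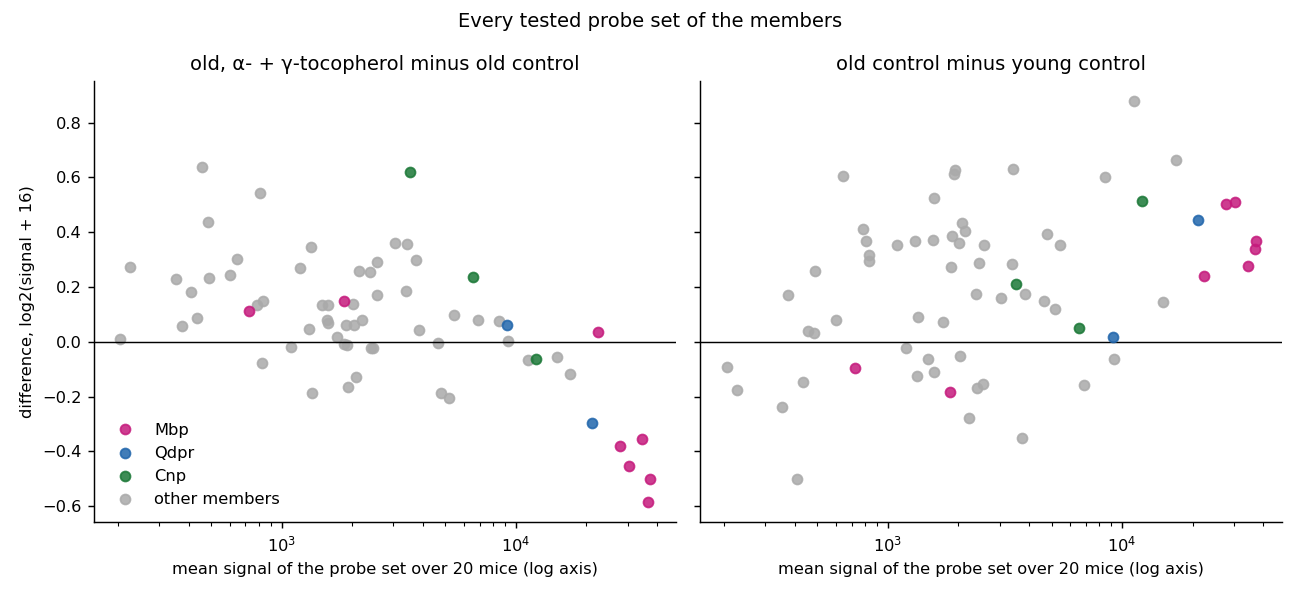
Difference of every tested probe set of the members against its mean signal over 20 mice (log axis), for mixture minus old control (left) and old control minus young control (right). On the left the 5 brightest Mbp probe sets lie at -0.36 to -0.58 and the other 3 at 0.04 to 0.15; the 2 Qdpr probe sets lie at -0.30 and 0.06.

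None of the other 31 members passed between mixture and old control mice. The interval of the fold lay within 1.5-fold for 31 of 33, and the members' median difference was 0.04, or -0.02 without old control mouse 3. Tspan2 had signals of 2698, 2351, 2908, 3008 and 3008 in mixture mice, against 1946, 2666, 1672, 2600 and 2684 in old control mice (difference 0.29 ± 0.12 SE, adjusted p = 0.167, or 0.18 without old control mouse 3). Ermn had signals of 3052, 3030, 3214, 2826 and 2684 in mixture mice, against 2640, 2829, 2291, 2813 and 2578 in old control mice (difference 0.17 ± 0.07 SE, adjusted p = 0.198). Mixture mice were not called different from α-tocopherol mice in any member, as for 0% of all tested genes in either direction. At an unadjusted p under 0.05 there were 3 of the 33 members, against 1163 of the 13351 genes tested. The largest difference among the members was that of Mbp, -0.42 ± 0.10 SE (adjusted p = 0.133), which passed without α-tocopherol mouse 5 (adjusted p = 0.0299). The interval lay within 1.5-fold for 29 of the 33.

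Members varied together from mouse to mouse to a small degree. Over 528 pairs of members, the correlation of their deviations from the group means across 20 mice had a median of 0.20, with 69.7% of pairs above 0, and the median of members with other genes was -0.003. Without old control mouse 3 the median was 0.10 and 63.1% of pairs were above 0. All values of a mouse share one array and its scaling, so these are descriptions. The members most like the others were Mag, Ugt8a and Aspa, with median correlations of 0.47, 0.45 and 0.42 to the other members, and those least like them were Mbp, Gjc3 and Sox10, with -0.14, -0.11 and -0.10.

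Of 30 further myelin and oligodendrocyte genes, 27 were tested, and 10 rose and 1 fell in old against young control mice, with a median of 0.24. For this and the lists below, 12.4% of all tested genes rose and 10.4% fell with age. In mixture against old control mice 1.36% rose and 3.16% fell. Apod, a lipid carrier, rose by 1.08 ± 0.11 SE, Slc44a1, a choline transporter, by 0.72 and Bcas1, a marker of newly myelinating cells, by 0.52, and Fez1, a kinesin adaptor also used by neurons, fell by 0.34 (adjusted p = 0.000335). In mixture against old control mice none of the 27 was called, at a median of 0.04. Among 16 tested regulators of myelin transcription, 3 (18.75%) rose with age and 1 fell, not far from the shares of all tested genes. Olig1, a basic helix-loop-helix factor of the lineage, rose by 0.52, Sox8 by 0.61 and Sox6, which holds cells in the precursor state, by 0.37, and the deacetylase Hdac1 fell by 0.28.

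Precursor genes gave no common direction. Of 12 tested, 3 rose with age, Ccnd1, Lhfpl3 and Sox6, which is also counted among the regulators above. Pcdh15, a protocadherin of precursors, fell by 0.64 with age (adjusted p = 0.00452). Pdgfra, the growth factor receptor that defines them, differed by -0.41 ± 0.21 SE (adjusted p = 0.16). Of 20 tested genes for sphingolipids and very long chain lipids, 5 rose and none fell, Kdsr, a reductase of sphingoid base synthesis, by 0.53, the elongation enzymes Elovl5 and Hacd3 by 0.42 and 0.36 and the saposin precursor Psap by 0.23. Of 17 genes of the node, paranode and juxtaparanode 5 rose and none fell, among them Ank3, the ankyrin of the node, by 0.76, the adhesion protein Nrcam by 0.39, Cadm4 by 0.28 and the sodium channel Scn2a by 0.27. In mixture against old control mice 1 of these 17 fell and the median was -0.12.

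Markers of other cells moved in the same comparisons. With age 10 of 15 astrocyte markers rose and none fell, with Gfap, the astrocyte filament protein, 3.52-fold higher, and their summed signal was 142373 to 162218 in old control mice, against 105480 to 112908 in young control mice. Of 15 microglia markers 12 rose and 1 fell, with summed signals of 40656 to 45188 in old control and 26214 to 27740 in young control mice. Of 15 neuron markers 7 rose and none fell, with 233773 to 277439 in old control mice and 214216 to 227479 in young control mice. In mixture against old control mice 5 of the 15 neuron markers fell and none rose, with summed signals of 203558 to 228012 in mixture mice, all below the old control range. Such sums were taken from the deposited signals alone, and the part of probe set brightness in them was not tested. None of 6 tested striatum markers passed the test with age, at a median of 0.01. These shifts accompany those of the myelin genes, and their part in them was not tested.

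Markers of tissue next to the cortex varied between mice. The 7 choroid plexus markers tested had summed signals of 31949 to 39049 in mixture, 10124 to 52428 in old control and 28747 to 42548 in young control mice, and Ttr, transthyretin, their most abundant product, differed by -0.82 ± 0.37 SE with age (adjusted p = 0.106). With age 1 of the 7 fell, and 1 rose in mixture against old control mice. No meninges marker of 12 passed the test with age, and of 9 endothelial markers 2 fell. In mixture against old control mice 2 of the 12 meninges markers rose and no endothelial marker was called. Of the Schwann cell markers, 4 of 10 were tested and 1 fell with age, by 0.84 (adjusted p = 0.0166). This was Egr2, which is also an activity-regulated factor of neurons. Another of the 4, Cdh19, rose in mixture against old control mice, by 0.50 (adjusted p = 0.038). Pmp2, a lipid-binding protein of peripheral myelin, was below the limit with a mean signal of 92.2.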

How the data were processed

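Labelled RNA from neocortex was measured on 20 oligonucleotide arrays. The authors deposited a linear signal intensity per probe set; the submitters' processing notes name GCOS without a version, and its background and summary steps are not stated there. Each deposited intensity column had a 2% trimmed mean of 1000, so a shift of all messenger RNA one way cannot be seen. Of 45037 probe sets without controls, 34945 had 1 gene symbol in the platform annotation, 932 several and 9160 none, and 34741 took the symbol of RefSeq's GRCm38.p6 table through the gene identifier. Probe sets with several symbols or none are not named.

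The top 60% by mean log2 signal, a signal of 184 or more, were tested (27022 probe sets). The brightest stood for each gene, which gave 13351 genes. log2(signal + 16) was fitted with limma 3.58.1 in R 4.3.3 (lmFit, contrasts and eBayes with trend, two-sided, all 20 arrays), which understates fold changes of dim genes. Mean signals are back-transformed log2 means. p-values measure the spread between mice. The test was also tried on simulated data with independent noise in each gene. Those data lacked effects shared by a whole array, and nothing here rests on them. The members, lists and rule for named genes (the 12 members with the smallest p with age, 4 per supplement against old control, Mbp, Sox10, Myrf, and up to 4 genes and the defining markers of each other list) were chosen with earlier results of these data known. Mog, Cldn11 with age, and the genes with no call were also given values. Alternatives were the pseudocount, the filter, normalization, probe set choice, the trend, a β-actin covariate, the groups in the fit, a replicate block and leaving out each mouse.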

Additional observations from a re-analysis of the deposited data

Results flagged for a closer look

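Each of 136 sets of 5 mice (the 33 members and their mean, in 4 groups) was searched for a mouse far from the others, and 7 had one; chance gives about 1 in 20 sets. Old control mouse 3 was the far one for Mag, with a signal of 3820, for Ugt8a with 2513 and for Cldn11 with 2075, each below the other old control mice. It also had the highest β-actin 3'/5' ratio of the arrays, and the part of that in these values was not tested. Fa2h was high in young control mouse 5 at 3965, Myrf low in young control mouse 3 at 1488.5, Pllp high in mixture mouse 4 at 2664.5 and Gsn high in old control mouse 2 at 2795.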

How the results depend on the processing

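Of 957 values under alternatives, 3 single-gene differences changed sign and 33 counts and medians moved. A further 45 single-gene values kept their sign but lost the call, and 2 gained one. The number of members higher in old than in young control mice was 12 as reported and 8 to 15 without single mice, 19 with array medians set equal, 9 without probe sets marked for cross-hybridisation, 8 with the β-actin ratio as covariate, 11 with quantile or cyclic loess normalization and 16 without the 3 arrays of a β-actin ratio over 2.2, a setting added after seeing the data. The number lower was 0, and 1 with quantile (Mal), 2 with cyclic loess (Mal and Cldn11), and 0 to 1 without single mice (Cldn11 without old control mouse 2 or 4). The members' median was 0.27, and 0.41 with array medians equal, where the median of all genes moved to 0.11 from -0.02, 0.15 without marked probe sets and 0.37 without the 3 arrays.

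In mixture against old control mice 2 members were lower, and 0 with quantile, cyclic loess, the mean of probe sets or the β-actin covariate, 1 with no trend or without marked probe sets, and 1 to 2 without single mice; 1 was higher without marked probe sets (Gjb1, 0.64). Without these probe sets Qdpr differed by 0.06, and with the covariate Tspan2 by -0.0121. In α-tocopherol against old control mice no member was called under any alternative, and Tspan2 differed by -0.0069 without the 3 arrays. In mixture against α-tocopherol mice 0 to 1 were lower without single mice. In α-tocopherol against young control mice the 1 lower became 0 with medians equal (where the members' median was 0.32, and 0.21 as reported), the mean of probe sets, no trend or the 3 arrays out, and was 0 to 1 without single mice.

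Over 30 same-numbered pairs the correlation of deviations was -0.12 to 0.20, with a median of 0.02 and 5 over 0.1. For different numbers the median was -0.01. These values gave no clear sign that mouse numbers pair the samples, but they cannot exclude it. With the replicate block 13 members rose and 1 fell (Cldn11) with age. Signal near the limit, as for Gjc3, and the number of mice limit the rest.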
